A study of Mus musculus with 3 samples.

Results

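The mouse mitochondrial genome encodes 37 genes, and all 37 were found by their chromosome label (MT) among the 54532 genes of the deposited expression table. They comprise 13 protein-coding genes, 2 ribosomal RNAs (rRNAs) and 22 transfer RNAs (tRNAs). Hippocampal RNA from C57BL/6 mice aged 10 months was sequenced for 3 genotypes, namely wild type (WT), PS19, and PS19 mice heterozygous for a Zbp1 loss (PS19 Zbp1+/-). PS19 mice carry a human mutant tau transgene under the mouse Prnp promoter, which is active mainly but not only in neurons, and serve as a model of tau pathology; both PS19 groups carry it. Zbp1 encodes a sensor of Z-form nucleic acid that can start inflammatory cell death. There was 1 library per genotype, and the labels give neither the sex nor the number of animals behind each, so the differences have no replicate check and no test was run. Intervals are 95% exact intervals that cover counting error only, and the labels mention no molecular identifiers.

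Both strands of the circular mitochondrial genome are transcribed into long precursors by the polymerase Polrmt, with Tfam and Tfb2m at the promoters. The tRNA genes lie between most of the other genes, and cutting at the tRNA ends frees the rRNAs and messenger RNAs, which are then adenylated, stabilised by the Lrpprc and Slirp proteins, or degraded. The messenger RNAs encode core subunits of the respiratory chain and of ATP synthase, on which neurons rely heavily for synaptic activity. In bulk tissue, fewer cells of a type and less RNA per cell cannot be told apart.

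The libraries held 16400328 to 17109734 recovered reads. Zbp1 itself had 5 reads for WT, 91 for PS19 and 0 for PS19 Zbp1+/-, where a heterozygote still has an intact allele. Xist had 11062, 13350 and 0 reads in the same order, whereas 4 Y-linked genes had 0, 0 and 268 to 711 reads, so both comparisons of PS19 Zbp1+/- also cross the sexes. That library also lacked weakly covered genes. Of 357 genes with 8 to 12 reads in each of the other libraries, 57 (16%, interval 12.3 to 20.2%) had 0 reads in it, against 2.14% for WT and 0.410% for PS19 by the same count. Neuron markers were present in every library, with summed FPKM (fragments per kilobase of gene, scaled to library size) of 8 genes of 760, 653 and 921. Slc17a7 alone made up 206, 172 and 371 of these sums, and 4 of the 8 were above WT in PS19 Zbp1+/-. Other cell type markers moved with genotype: 7 choroid plexus markers summed to 3406 for WT, 2164 for PS19 and 25.5 for PS19 Zbp1+/-, 5 oligodendrocyte markers to 685, 1210 and 434, and 5 astrocyte markers to 521, 1363 and 651, of which Gfap alone made up 98.4, 768 and 112. No listed marker was at 0 in any library. Microglial markers (5) summed to 45.9, 99.6 and 54.7, endothelial markers (4) to 48.3, 47.6 and 58.3, and blood markers (5) to 19.0, 15.8 and 3.44. Of the microglial markers, 4 were higher in PS19 than in WT, and P2ry12 was lower, at 10.1 against 11.2. Csf1r made up 17.6, 48.7 and 23.0 of the microglial sums. The part of cell composition in the mitochondrial values was not tested.

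The mitochondrial genes are packed with almost no spacing, which bears on how reads can be assigned to them. The plus strand holds 28 genes and the minus strand 9, namely mt-Nd6 and 8 tRNAs. Of 36 neighbouring pairs, 9 overlap, 12 abut and 15 are separated by a gap, the largest of 32 bases between mt-Tn and mt-Tc, where the light-strand origin of replication lies. The largest overlap is that of mt-Atp8 and mt-Atp6, which share 43 bases read in different frames (MT:7927-7969, GRCm38). mt-Nd5 and mt-Nd6 overlap by 14 bases on opposite strands (MT:13552-13565). The stretches are shown because a read inside the shared bases, in capitals, matches both genes by position. For mt-Nd5 and mt-Nd6 the strand of the read, where known, would tell them apart.
mt-Atp8 to mt-Atp6 (MT:7900-7989, plus strand): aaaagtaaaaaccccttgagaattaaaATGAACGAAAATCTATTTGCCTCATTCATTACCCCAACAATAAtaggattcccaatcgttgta
mt-Nd5 end (MT:13506-13565, plus strand): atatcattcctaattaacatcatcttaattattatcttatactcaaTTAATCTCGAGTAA

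The strands also differ in base composition, and the genes end in an unusual way. The 12 protein-coding genes of the plus strand held 5.88 to 16.1% G and 22.1 to 30% C, whereas mt-Nd6, read from the minus strand, held 28.1% G and 5.97% C. In 10 of the 13 protein-coding genes the annotated sequence ended in a complete stop codon (TAA or TAG). mt-Co3, mt-Nd4 and mt-Cytb ended in a single T after the last whole codon, which adenylation of the freed RNA completes to UAA. Their last 21 bases are shown with that T in capitals.
mt-Co3: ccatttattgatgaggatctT
mt-Nd4: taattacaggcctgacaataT
mt-Cytb: aaatactaaaattatatccaT

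Part of the mitochondrial genome also has near-identical copies in the nuclear genome. The annotated transcripts of 7 nuclear genes on the minus strand of chromosome 1 (chr1:24611535-24616197, GRCm38) matched mitochondrial genes in the same order and at 99% identity or more. Their alignments cover 4136 of the 4653 mitochondrial bases that they bracket (MT:6390-11042), called the copied stretch here. The bases between the alignments, with the tRNA genes and most of mt-Atp8, were not compared. They correspond to the last part of mt-Co1 (Gm29216), to mt-Co2 (Gm28661), mt-Atp6 (Gm10925), mt-Co3 (Gm28437), mt-Nd3 (Gm28438), mt-Nd4l (Gm10222) and the first part of mt-Nd4 (Gm28439). A total of 6 protein-coding and 5 tRNA genes lie wholly inside the bracketed stretch, and mt-Co1 and mt-Nd4 lie partly inside it. Over their aligned bases the copies differed from the mitochondrial genes at 2 positions only, T3C in Gm28438 (counted from the first base of mt-Nd3) and A1066T in Gm29216 (counted from the first base of mt-Co1). The first 60 bases of mt-Nd3 and of its copy are shown with the differing base in capitals, followed by the first 60 bases of mt-Co2, which its copy repeats without a change. A read from the aligned bases of mt-Co2 therefore has no base that places it in either genome.
mt-Nd3 (MT): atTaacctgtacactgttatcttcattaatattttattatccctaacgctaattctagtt
Gm28438 (chr1:24613060-24613119, minus strand): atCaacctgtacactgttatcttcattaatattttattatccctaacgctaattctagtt
mt-Co2 (MT:7013-7072): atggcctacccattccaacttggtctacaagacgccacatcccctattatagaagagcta
Gm28661 (chr1:24615506-24615565, minus strand): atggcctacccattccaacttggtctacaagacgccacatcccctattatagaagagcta

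Other nuclear copies were more diverged. Gm13340 on chromosome 2 matched mt-Co1 at 97.6% identity along its whole length. Its first 60 bases carry C54A and A60G relative to mt-Co1 (capitals), so that a read there can be placed.
mt-Co1: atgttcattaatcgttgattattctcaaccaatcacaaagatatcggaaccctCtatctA
Gm13340 (chr2:22589588-22589647): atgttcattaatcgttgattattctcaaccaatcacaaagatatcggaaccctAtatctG

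The position of a gene relative to the copied stretch went with its level. Outside or partly inside the stretch, the 2 rRNAs and 7 messenger RNAs had an FPKM of at least 1348 for WT, 1572 for PS19 and 2406 for PS19 Zbp1+/-. The 6 messenger RNAs wholly inside it had at most 185, 108 and 124, a gap of 7.27-, 14.6- and 19.3-fold without overlap in any library. The counting settings for reads that map to several places are not given in the sources used here, and the part of discarded reads in the low values was not tested. The levels of mt-Co2, mt-Atp8, mt-Atp6, mt-Co3, mt-Nd3 and mt-Nd4l are thus uncertain. Apart from mt-Atp8, of which only the bases shared with mt-Atp6 were matched by a copy, each has a copy to which reads were also assigned. Copies at 99% identity or more also matched 63.6% of the bases of mt-Nd4 and 31.3% of those of mt-Co1. The levels of mt-Nd4 and mt-Co1 share this limit in part. For mt-Co2, 2187 reads were assigned to the mitochondrial gene and 1806 to Gm28661 in WT, 1274 and 1384 in PS19, and 1347 and 1231 in PS19 Zbp1+/-. The copy took 45.2, 52.1 and 47.8% of the pair's reads, near an even division. For mt-Nd3 the copy Gm28438 took 7.25, 7.20 and 6.65%, with 50, 36 and 42 reads. For mt-Nd4l, whose aligned bases also had no difference, the copy took 26.1, 33.2 and 35.1%.

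The other copies on chromosome 1 had fewer reads than mt-Co2's. Gm10925, the copy of mt-Atp6, had 834 reads for WT, 686 for PS19 and 958 for PS19 Zbp1+/-. Gm28437, the copy of mt-Co3, had 874, 418 and 648 reads. Gm10222, the copy of mt-Nd4l, had 57, 71 and 129. For the genes only partly inside the stretch the copies were minor: Gm29216 had 420, 306 and 390 reads beside mt-Co1, and Gm28439 had 273, 266 and 535 beside mt-Nd4, under 1% of each pair. The diverged Gm13340 had 121, 96 and 106.

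**Figure D1:**
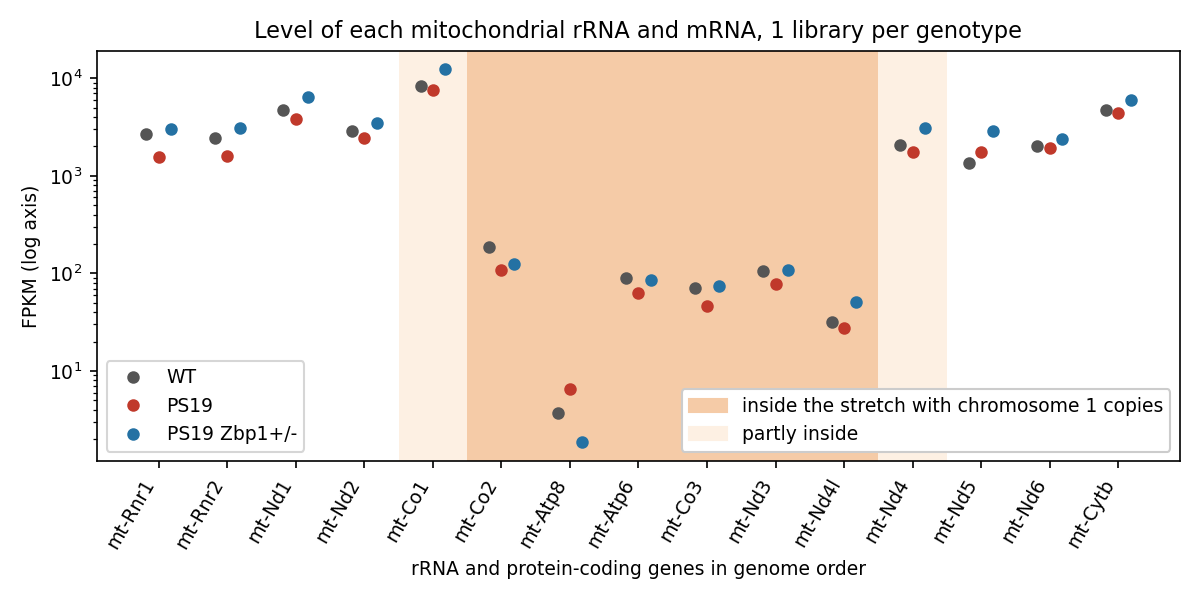
FPKM of the 2 rRNAs and 13 messenger RNAs in genome order, on a logarithmic axis, with 1 point per library; dark shading marks genes wholly inside the stretch bracketed by chromosome 1 copies and pale shading the 2 partly inside. For WT, unshaded and pale-shaded genes sit at 1348 or above and dark-shaded genes at 185 or below.

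Among the genes not wholly inside the stretch, mt-Co1, the catalytic core of cytochrome oxidase (complex IV), was the most abundant member in every library. Its FPKM of 8311 in WT and 7639 in PS19 ranked 1 among all genes, and its 12302 in PS19 Zbp1+/- ranked 2. In each library 9 mitochondrial genes were among the 12 highest. mt-Cytb, the complex III subunit, and mt-Nd1, of complex I, took the next places among the messenger RNAs, in that order in WT and PS19 and reversed in PS19 Zbp1+/-. mt-Nd2 followed them in every library.

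Mitochondrial genes took 4.01% of all recovered reads for WT (interval 4.0 to 4.02), 3.57% for PS19 (3.56 to 3.58) and 5.05% for PS19 Zbp1+/- (5.04 to 5.06). The counts behind these shares were 671662, 585503 and 864603 reads. PS19 was the lowest library and PS19 Zbp1+/- the highest, and the counting intervals do not meet. FPKM divides by gene length, and the same genes held 12.1, 11.3 and 14.8% of all FPKM. Relative to the library size on which the deposited scaling rests, the summed reads of PS19 were 0.870 of WT (0.867 to 0.873), and those of PS19 Zbp1+/- were 1.61 times PS19 (1.61 to 1.62) and 1.40 times WT (1.40 to 1.41).

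The biotypes did not share this pattern to the same degree. Protein-coding genes had 557940, 513748 and 738852 reads, or 3.33, 3.13 and 4.32% of all reads. The rRNAs had 111378, 69764 and 122919, or 0.665, 0.425 and 0.718%. The tRNAs had 2344, 1991 and 2832, or 0.0140, 0.0121 and 0.0166%. By share of reads PS19 was lowest and PS19 Zbp1+/- highest for each biotype, but the span differed. Of the summed FPKM, protein-coding genes held 9.54, 9.43 and 12%, so that PS19 and WT were close on that scale. PS19 stood at 0.919 of WT for protein-coding genes, 0.625 (0.619 to 0.631) for rRNAs and 0.848 (0.798 to 0.90) for tRNAs. PS19 Zbp1+/- stood at 1.57, 1.92 (1.91 to 1.94) and 1.55 (1.47 to 1.65) times PS19, and at 1.44, 1.20 (1.19 to 1.21) and 1.32 (1.25 to 1.39) times WT. Within the mitochondrial reads alone, which no library scaling changes, rRNA made up 16.6% for WT (16.5 to 16.7), 11.9% for PS19 (11.8 to 12.0) and 14.2% for PS19 Zbp1+/- (14.1 to 14.3).

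**Figure D2:**
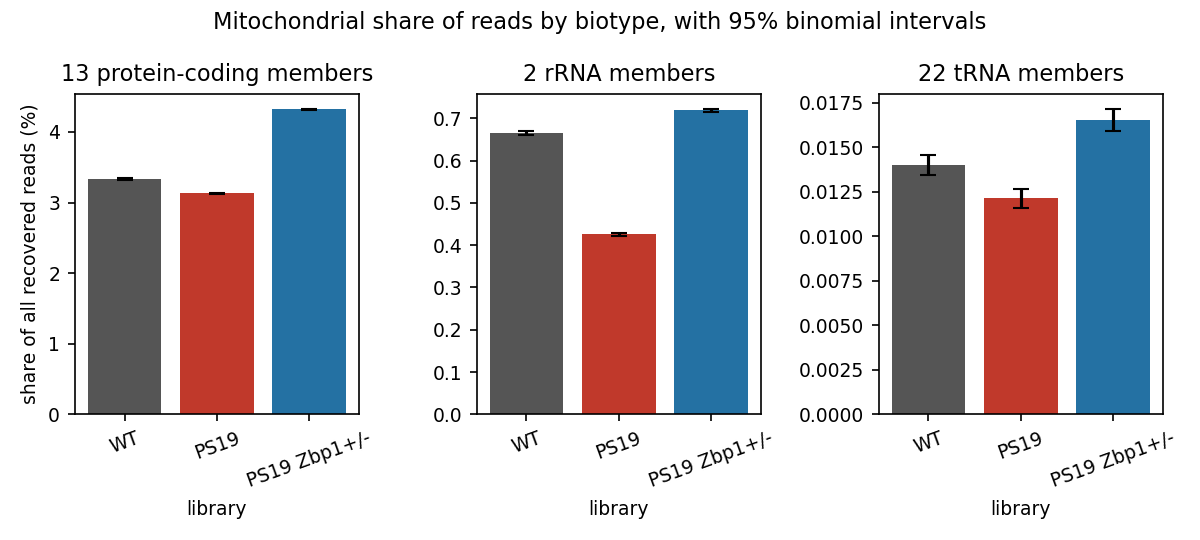
Share of all recovered reads, in percent, taken by mitochondrial protein-coding genes, rRNAs and tRNAs in the 3 libraries, each panel on its own axis from 0; bars are 1 library each and error bars are 95% exact binomial intervals. rRNA was 0.665% for WT, 0.425% for PS19 and 0.718% for PS19 Zbp1+/-.

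The 2 rRNAs form the small and large subunits of the mitochondrial ribosome. mt-Rnr1, the 12S rRNA (MT:70-1024), had an FPKM of 2698 for WT, 1572 for PS19 and 3044 for PS19 Zbp1+/-. mt-Rnr2, the 16S rRNA (MT:1094-2675), had 2452, 1602 and 3072. Both were lowest in PS19 and highest in PS19 Zbp1+/-, with read ratios for PS19 over WT of 0.583 (0.574 to 0.592) for mt-Rnr1 and 0.653 (0.645 to 0.661) for mt-Rnr2. From PS19 to PS19 Zbp1+/- they were 1.94 and 1.92 times as high. Against mt-Co1 on the FPKM scale, mt-Rnr1 stood at 0.325 for WT, 0.206 for PS19 and 0.247 for PS19 Zbp1+/-, and mt-Rnr2 at 0.295, 0.210 and 0.25. Part of mt-Co1 lies inside the copied stretch. The ratio of mt-Rnr2 to mt-Rnr1, which are cut from the same precursor, was 0.909, 1.02 and 1.01. Library selection steps for or against rRNA are not given in the sources used here.

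Complex I, NADH dehydrogenase, takes 7 subunits from the mitochondrial genome. mt-Nd1 had an FPKM of 4676 for WT, 3799 for PS19 and 6418 for PS19 Zbp1+/-. mt-Nd2 had 2852, 2436 and 3502. mt-Nd4 had 2045, 1766 and 3084. These were lowest in PS19 and highest in PS19 Zbp1+/-, with PS19 at 0.812, 0.854 and 0.863 of WT by reads and PS19 Zbp1+/- at 1.37, 1.23 and 1.51 of WT.

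mt-Nd5, a proton-pumping subunit at the far end of the membrane arm of complex I, had a different order. Its FPKM was 1348 for WT, 1732 for PS19 and 2898 for PS19 Zbp1+/-, from 42425, 54626 and 83665 reads. WT rather than PS19 was the lowest library. PS19 stood at 1.29 times WT (1.27 to 1.30) and PS19 Zbp1+/- at 2.15 times WT (2.12 to 2.18). Of the 9 messenger RNAs and rRNAs not wholly inside the copied stretch, it was the only one with a PS19 over WT read ratio above 1 at the deposited scaling; under a rescaling of FPKM to the same sum, mt-Co1 and mt-Nd6 were at 1.0 and 1.03. mt-Nd6, the complex I gene of the minus strand, had an FPKM of 2032, 1917 and 2406. The ratio of mt-Nd6 to mt-Nd5, which face each other on opposite strands, was 1.51 for WT, 1.11 for PS19 and 0.830 for PS19 Zbp1+/-. Strandedness of the counting is not given in the sources used here, so reads of mt-Nd6 and of antisense RNA over it cannot be told apart.

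The last 2 subunits of complex I lie in the copied stretch. mt-Nd3 had 640, 464 and 590 reads, or an FPKM of 107, 77.1 and 107. mt-Nd4l had 161, 143 and 238 reads, or 31.4, 27.9 and 50.6. PS19 Zbp1+/- over WT was 1.0 (0.897 to 1.13) for mt-Nd3 and 1.61 (1.31 to 1.98) for mt-Nd4l. For mt-Nd4l the interval of PS19 over WT (0.703 to 1.12) included 1.

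In complexes III and IV, mt-Cytb had an FPKM of 4756 for WT, 4348 for PS19 and 5997 for PS19 Zbp1+/-, and mt-Co1 had the levels given above. By reads, PS19 stood at 0.914 of WT for mt-Cytb and 0.919 for mt-Co1, and PS19 Zbp1+/- at 1.26 and 1.48 times WT. For mt-Co1 the ratio of PS19 to WT reached 1.0 when FPKM was rescaled to the same sum. mt-Co2, which carries the copper centre that takes electrons from cytochrome c, had an FPKM of 185, 108 and 124. Unlike the messenger RNAs outside the copied stretch, mt-Co2 was lower in PS19 Zbp1+/- than in WT, at 0.671 (0.627 to 0.719) by its own reads and 0.704 with those of Gm28661 added. mt-Co3 had an FPKM of 70.2, 46.6 and 73.6, with an interval of PS19 Zbp1+/- over WT (0.956 to 1.15) that included 1.

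ATP synthase (complex V) takes 2 subunits, both in the copied stretch and overlapping each other. mt-Atp6 had 1049, 733 and 918 reads, or an FPKM of 89.3, 62.3 and 85.2. PS19 stood at 0.697 of WT (0.634 to 0.767), and PS19 Zbp1+/- at 0.954 of WT (0.872 to 1.04). mt-Atp8 had 13, 23 and 6 reads, too few to order WT against either other library, with intervals of 0.858 to 3.79 for PS19 and 0.157 to 1.42 for PS19 Zbp1+/-. By reads, the 6 protein-coding genes inside the stretch together stood at 0.875 of WT in PS19 Zbp1+/-, while the 2 partly inside stood at 1.49 and the 5 outside at 1.41. The first of these sums rests on mt-Co2, which had the most reads of the 6, while mt-Nd4l stood above WT as the genes outside did.

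**Figure D3:**
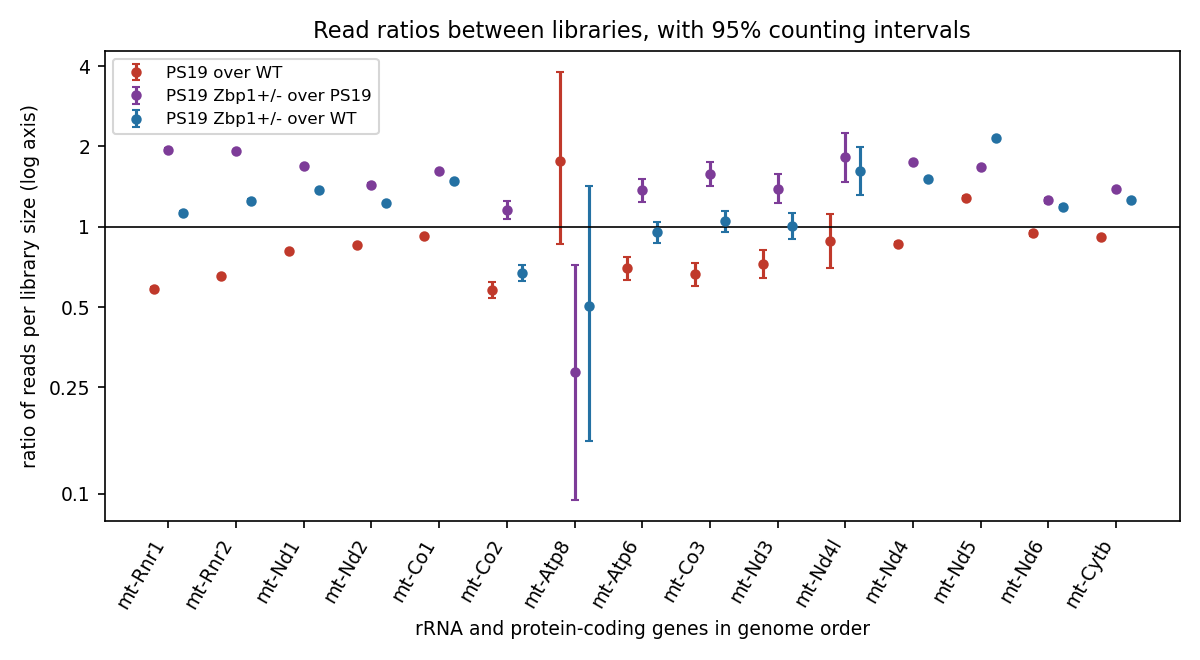
Read ratios of each mitochondrial messenger RNA and rRNA between libraries (PS19 over WT, PS19 Zbp1+/- over PS19 and PS19 Zbp1+/- over WT) on a logarithmic axis, per implied library size, with 95% exact intervals as bars. mt-Nd5 is at 1.29 for PS19 over WT, and both rRNAs are at 0.583 and 0.653.

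As a share of all protein-coding mitochondrial reads, mt-Nd5 took 7.60% for WT (7.53 to 7.67), 10.6% for PS19 (10.5 to 10.7) and 11.3% for PS19 Zbp1+/- (11.3 to 11.4). mt-Co1 kept the largest share, at 39.7, 39.7 and 40.7%. The share of mt-Cytb was 16.8, 16.7 and 14.7%, and that of mt-Nd1 13.8, 12.2 and 13.2%. These shares sum to 100 in each library, so a higher share of 1 gene goes with lower shares of others. The FPKM of mt-Nd5 relative to mt-Nd4, which lies upstream on the same strand, was 0.659 (0.651 to 0.668) in WT, 0.981 (0.969 to 0.994) in PS19 and 0.940 (0.930 to 0.949) in PS19 Zbp1+/-. Relative to mt-Cytb, downstream on that strand, it was 0.283, 0.398 and 0.483. WT had the lowest value of mt-Nd5 against both neighbours, of which mt-Nd4 lies partly inside the copied stretch.

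**Figure D4:**
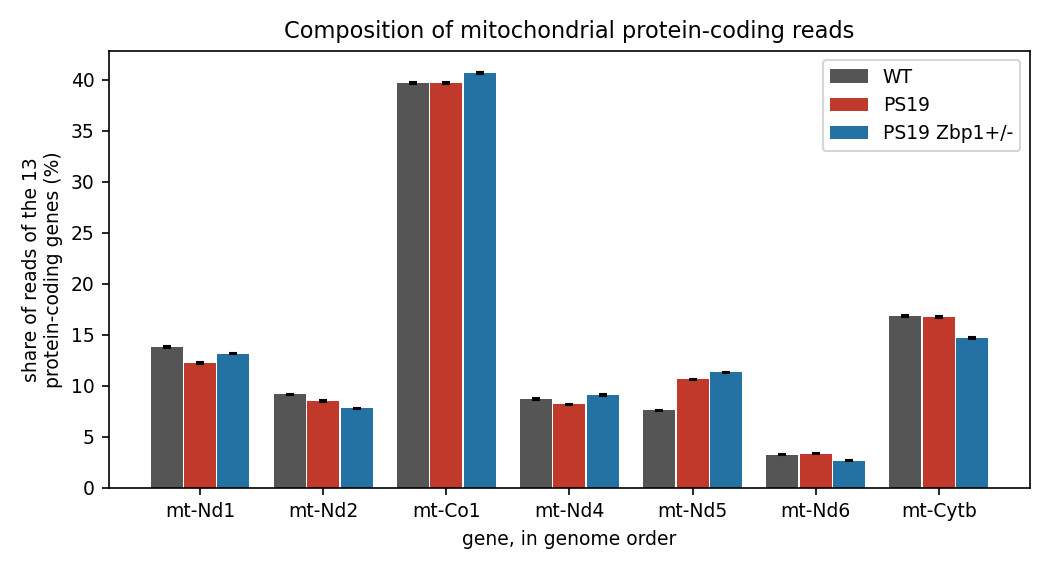
Share of the reads of all 13 protein-coding mitochondrial genes, in percent, for the 7 genes not wholly inside the copied stretch; each bar is 1 library and error bars are 95% exact binomial intervals. mt-Nd5 is at 7.60% for WT, 10.6% for PS19 and 11.3% for PS19 Zbp1+/-, while mt-Co1 is between 39.7 and 40.7%.

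Mature tRNAs are short, folded and modified, and a standard RNA-seq library captures few of them, so that reads over tRNA genes can also come from uncut precursors. The 22 tRNA genes had 2344, 1991 and 2832 reads in all, and 9 of them had at least 50 reads in a library. The gene sequences of 5 of these, taken from both strands for the differences described below, and of mt-Tf, which had no read in any library, are shown with the anticodon in capitals.
mt-Tp (proline, minus strand): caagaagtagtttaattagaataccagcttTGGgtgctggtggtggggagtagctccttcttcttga
mt-Tc (cysteine, minus strand): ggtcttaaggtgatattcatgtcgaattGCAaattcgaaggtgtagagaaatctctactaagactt
mt-Te (glutamate, minus strand): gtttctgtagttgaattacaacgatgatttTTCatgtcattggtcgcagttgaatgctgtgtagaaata
mt-Tl1 (leucine, plus strand): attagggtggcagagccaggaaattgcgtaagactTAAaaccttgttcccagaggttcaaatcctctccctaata
mt-Tl2 (leucine, plus strand): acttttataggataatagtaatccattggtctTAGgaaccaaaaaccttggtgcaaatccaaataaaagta
mt-Tf (phenylalanine, plus strand): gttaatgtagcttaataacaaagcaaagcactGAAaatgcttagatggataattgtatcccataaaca

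tRNA reads lay mostly on minus-strand genes. The 8 minus-strand tRNAs took 76.3% of tRNA reads for WT, 81.7% for PS19 and 82.1% for PS19 Zbp1+/-, although 14 of the 22 genes are on the plus strand. Strandedness of the counting is not given, so reads of these tRNAs and antisense reads of the plus-strand precursor cannot be told apart. mt-Tp, which lies on the minus strand next to the control region, had 866, 739 and 982 reads. mt-Tc had 334, 247 and 514, mt-Tn, for asparagine, 252, 206 and 180, and mt-Ty, for tyrosine, 104, 125 and 167. mt-Te had 219, 297 and 442 reads and abuts mt-Nd6 on the same strand. On the plus strand mt-Tl1, which separates mt-Rnr2 from mt-Nd1, had 156, 110 and 238 reads. mt-Tl2 had 114, 90 and 27, mt-Tw, for tryptophan, 96, 62 and 73, and mt-Ts2, for serine, 50, 30 and 46. The other 13 tRNAs had at most 46, 24 and 47 reads, and 3, 4 and 4 of them had none. At 0 reads, mt-Tf could have had an FPKM of up to 2.56 for WT, 2.55 for PS19 and 2.79 for PS19 Zbp1+/-.

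The covered tRNAs were not all ordered alike. mt-Te was ordered like mt-Nd5, lowest in WT, with PS19 at 1.35 times WT (1.13 to 1.62) and PS19 Zbp1+/- at 2.20 times WT (1.87 to 2.60). On the FPKM scale mt-Te stood at 0.0905, 0.130 and 0.168 of its neighbour mt-Nd6. mt-Tc and mt-Tl1 were lowest in PS19, and PS19 Zbp1+/- stood at 2.27 (1.95 to 2.66) and 2.36 (1.88 to 2.99) times PS19. mt-Tl2 was the opposite case, at 0.258 of WT (0.163 to 0.396) and 0.328 of PS19 (0.205 to 0.509) in PS19 Zbp1+/-. mt-Tn was also lower in PS19 Zbp1+/- than in WT (0.779, 0.639 to 0.947). mt-Tm, for methionine, had 13, 12 and 0 reads, and the intervals for PS19 Zbp1+/- were 0 to 0.358 of WT and 0 to 0.393 of PS19. mt-Ts1 had 0, 0 and 6 reads, with intervals that started at 1.28 times WT and 1.29 times PS19. Both genes had low counts. The 0 reads of mt-Tm stand beside the larger share of weakly covered genes with 0 reads in the PS19 Zbp1+/- library, whose part was not tested. The reads of mt-Ts1 lay in that library only.

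**Figure D5:**
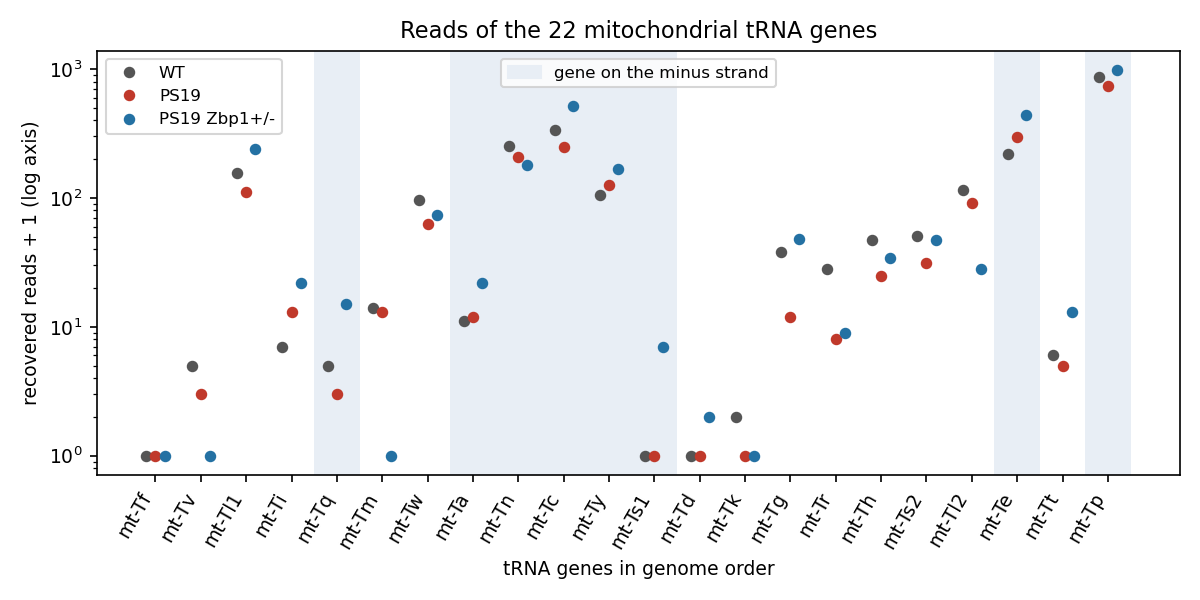
Recovered reads of the 22 tRNA genes in genome order, plotted as reads + 1 on a logarithmic axis, with 1 point per library and shading behind minus-strand genes. Minus-strand mt-Tp has the most reads in each library (866, 739 and 982), and mt-Tl2 has 114 reads for WT and 27 for PS19 Zbp1+/-.

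For comparison with all genes, differences were taken of log2(FPKM + 1), a scale that understates changes of weakly expressed genes, over genes that reached an FPKM of 1 in at least 1 of the libraries compared. Of 33 mitochondrial genes that passed this filter for PS19 against WT, 0 were higher and 2 lower by 2-fold or more, mt-Tg (-1.65) and mt-Tr (-1.79). Among all 15013 genes passing it, 3.42% were higher and 1.17% lower. mt-Tg had 37, 11 and 47 reads and mt-Tr 27, 7 and 8, both in the copied stretch. For PS19 Zbp1+/- against PS19, 6 of 34 were higher and 4 lower, against 3.47 and 6.84% of all genes. The 6 were the tRNAs mt-Tl1, mt-Tq, mt-Tc, mt-Ts1, mt-Tg and mt-Tt, and the 4 were mt-Tv, mt-Tm, mt-Tl2 and mt-Atp8. For PS19 Zbp1+/- against WT, 7 of 34 were higher and 4 lower, against 2.86 and 3.99%. mt-Nd5 (1.10) was the only messenger RNA or rRNA among them, beside the tRNAs mt-Ti, mt-Tq, mt-Ta, mt-Ts1, mt-Te and mt-Tt, and the 4 lower genes were mt-Tv, mt-Tm, mt-Tr and mt-Tl2. Each pair of these comparisons shares a library, so their counts are not independent. A short gene passes the filter on few reads, since 2 reads of mt-Tv in PS19 were an FPKM of 1.68. The shares of all genes are thus not a like background for the tRNAs. Among the called tRNAs, mt-Tv had 4, 2 and 0 reads, mt-Tq 4, 2 and 14, mt-Tt 5, 4 and 12, and mt-Ti 6, 12 and 21. With at least 50 reads over both libraries, the counts past 2-fold were 0 for PS19 against WT, 3 higher and 1 lower for PS19 Zbp1+/- against PS19, and 2 higher and 1 lower against WT. The share of all genes past 2-fold at this read minimum is not given here, so these counts have no background.

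The mitochondrial messenger RNAs and rRNAs other than mt-Nd5 and mt-Atp8 differed by less than 2-fold, and abundant nuclear genes had median differences of the same sign. The median difference of the mitochondrial genes that passed the filter was -0.30 for PS19 against WT, 0.67 for PS19 Zbp1+/- against PS19 and 0.32 for PS19 Zbp1+/- against WT, beside -0.02, 0.04 and 0.01 for all genes. Of 327 nuclear genes with a mean FPKM of at least 100, the medians were -0.29, 0.40 and 0.12, and 17.7, 84.1 and 65.7% were above 0. Among the mitochondrial genes, 6 of 33, 29 of 34 and 24 of 34 were above 0. A lower level in PS19 and a higher one in PS19 Zbp1+/- was thus also the median of abundant nuclear genes. The sets were chosen at unlike levels, since the mitochondrial genes needed an FPKM of only 1 and include tRNAs with few reads.

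The nuclear genes that act in copying the mitochondrial genome and in transcribing, cutting, modifying and translating its RNA differed by less than 2-fold on the log2(FPKM + 1) scale, with 1 exception among those that passed the filter. Of 71 listed names 70 were in the table and 66 passed the filter. Between PS19 and WT, 0 were higher or lower by 2-fold, beside 3.42 and 1.17% of all genes, with a median of -0.10. In both comparisons of PS19 Zbp1+/- 1 gene was lower, Mterf1b, a copy of a transcription termination factor with 47, 41 and 5 reads, and the medians were 0.14 against PS19 and -0.02 against WT. Among all genes 6.84% were lower against PS19 and 3.99% against WT. In both, 0 listed genes were higher, beside 3.47 and 2.86% of all genes. Mterf1b has a close paralogue, Mterf1a, so its reads are uncertain. Polrmt had 597, 665 and 732 reads, Tfam 658, 574 and 552, and Tfb2m 274, 263 and 256. Lrpprc had 1792, 1666 and 1603, and Elac2, which cuts the 3′ end of tRNAs, 583, 516 and 752. Slirp had only 12, 7 and 6 reads. For PS19 against WT the lowest difference was that of Mrm2, an rRNA methyltransferase, at -0.69, and the highest that of Pprc1, a coactivator, at 0.30. For PS19 Zbp1+/- the lowest was Mterf1b in both comparisons, at -1.15 against PS19 and -1.28 against WT. The highest were Mto1, a tRNA modification enzyme, at 0.67 against PS19 and Pprc1 at 0.65 against WT. Mterf2, a termination factor of the same family with 151, 105 and 61 reads, was at -0.91 on that scale for PS19 Zbp1+/- against WT, and its read ratio was 0.440 (0.322 to 0.597).

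The nuclear-encoded subunits of the respiratory complexes and ATP synthase were also lowest in PS19, but highest in WT. Their summed FPKM over 81 genes was 6096 for WT, 4477 for PS19 and 5051 for PS19 Zbp1+/-, while the 13 mitochondrial protein-coding genes summed to 26507, 23965 and 37051. By complex the mitochondrial sums were 13092, 11754 and 18466 for complex I, 8566, 7794 and 12500 for complex IV, and 93.0, 68.8 and 87.0 for complex V. The complex V genes, both in the copied stretch, had the same order of summed FPKM as the nuclear subunits. By reads, their ratio of PS19 Zbp1+/- to WT had an interval (0.867 to 1.04) that included 1. With the reads of its copy added, mt-Atp6 came to 1.09 of WT. The median differences of the nuclear subunits were -0.41 for PS19 against WT, 0.14 for PS19 Zbp1+/- against PS19 and -0.26 for PS19 Zbp1+/- against WT. PS19 Zbp1+/- lay below WT for the nuclear subunits, with 18 of 80 above 0, and above WT for the summed mitochondrial protein-coding genes. None of 80 passed 2-fold between PS19 and WT, beside 3.42% higher and 1.17% lower among all genes. In PS19 Zbp1+/-, 3 of 79 were lower by 2-fold against PS19 and 5 of 80 against WT, beside 6.84 and 3.99% of all genes. In these comparisons 0 were higher, beside 3.47 and 2.86% of all genes. Cox6b2, Cox7a1 and Cox8b, tissue-restricted isoforms of complex IV subunits, were lower by 2-fold in PS19 Zbp1+/- than in either other library. Cox6b2 had 120, 86 and 25 reads, Cox7a1 20, 23 and 1, and Cox8b 58, 69 and 0. The complex I subunit Ndufa1, with 670, 439 and 237 reads, was lower by 2-fold than in WT only. Cox7b2, with 10, 5 and 0 reads, was lower than in WT and did not pass the filter against PS19.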

How the data were processed

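The authors deposited 1 table of FPKM values with gene positions, lengths and biotypes, and every sample column was used. Per the submitters' processing notes, Trim Galore 0.6.5, STAR 2.5.3a, featureCounts 2.0.4 and mm39 were used; counting settings, strandedness and library selection are not given in the sources used here. The table's positions equal GENCODE release M21 (GRCm38) for all 37 mitochondrial genes and 98.3% of gene IDs found there. Whole reads were recovered from the FPKM values, which times gene length came in whole steps (tolerance 0.01 reads). The library sizes implied by the steps (17253479, 17287957 and 15826984 for WT, PS19 and PS19 Zbp1+/-) carry the authors' size-factor scaling (1.03, 1.03 and 0.945). Read ratios used these sizes, with 95% Clopper-Pearson intervals. Differences were taken of log2(FPKM + 1) over genes that reached an FPKM of 1 in at least 1 of both libraries. With 1 library per genotype no test was run, and the code was tested on simulated data.

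Nuclear copies were found by BLAST of GENCODE transcripts at 90% identity over at least 100 bases. Printed sequences are from GENCODE M21. All messenger RNAs and rRNAs, tRNAs and copies with at least 50 reads in a library, 6 regulators of mitochondrial RNA and the extreme differences of their list are named; weaker genes named among called counts, Mterf2, Gfap and the nuclear subunits were picked with their values in view. The members and lists were chosen with earlier results of these data known.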

Additional observations from a re-analysis of the deposited data

How the results depend on the processing

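No paired analysis was possible because there was 1 library per genotype and no replicate number, and no library could be left out. Values are given for WT, PS19 and PS19 Zbp1+/-, or for PS19 against WT, PS19 Zbp1+/- against PS19 and PS19 Zbp1+/- against WT. No summed ratio of all 37 members and no median of the mitochondrial genes changed direction under any alternative run. Sums by biotype or complex are not covered by this statement. The mitochondrial share was 3.43, 3.22 and 4.44% among protein-coding genes only, 3.37, 3.16 and 4.37% without rRNA, and 4.04, 3.59 and 5.08% with the nuclear copies. The rRNA share of mitochondrial expression was 15.3, 11.0 and 13.4% by FPKM, and 16.5% in WT with the copies. Summed read ratios were 0.890, 1.42 and 1.26 when scaled by total reads, 0.886, 1.44 and 1.27 by reads outside the mitochondrial genome, and 0.951, 1.32 and 1.26 with FPKM rescaled to the same sum. Median log2 differences were -0.27, 0.48 and 0.16, then -0.27, 0.50 and 0.18, then -0.18, 0.39 and 0.16 under these scalings. Means in place of medians were -0.35, 0.51 and 0.18. For PS19 against WT the median was -0.32 with a pseudocount of 0.1 and -0.32 with at least 50 reads over both libraries.

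Of the 2, 10 and 11 genes past 2-fold, 0, 4 and 3 were counted with at least 50 reads. A 1.5-fold threshold gave 12, 22 and 17, a 4-fold threshold 0, 4 and 3, and leaving out the gene with the largest difference gave 1 for PS19 against WT. The counts therefore depend on the read minimum. Shares of all genes at these settings are not given here, so the counts have no background.

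Among the messenger RNAs and rRNAs, directions reversed for 6 genes, and single tRNAs are not covered here. For PS19 over WT, mt-Co1 and mt-Nd6 came to 1.0 and 1.03 with FPKM rescaled to the same sum, and mt-Co2 came to 0.947 for PS19 Zbp1+/- over PS19. For PS19 Zbp1+/- over WT, mt-Co3 came to 0.941, 0.951 and 0.939 and mt-Nd3 to 0.902, 0.912 and 0.901 under the 3 scalings; with the reads of their chromosome 1 copies, an alternative chosen after seeing the data, they came to 0.933 and 0.998, and mt-Atp6 to 1.09. Except for the copies, which add reads, the cause was not tested.

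Rescaling moved the median of all genes as well, from 0.04 to -0.12, -0.10 and -0.23 for PS19 Zbp1+/- against PS19 and from 0.01 to -0.12, -0.11 and -0.14 against WT. The share of higher genes among those past 2-fold moved with it, from 33.7% to 22.6, 24.0 and 19.6% and from 41.8% to 31.1, 32.6 and 33.0%. For PS19 against WT the median of all genes moved from -0.02 to 0.01, 0.001 and 0.10. The share of higher genes there moved from 74.5% to 76.1, 75.4 and 79.1%. Depth limits the 13 tRNAs under 50 reads and mt-Atp8.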
